A study of Homo sapiens with 12 samples.

Results

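The 40 genes described here encode proteins of the human centromere and kinetochore, and were taken by symbol as a list that runs from the centromeric histone CENPA to the microtubule-binding Ndc80 complex. Each of the 40 symbols occurred once among the 58735 entries of each of 12 count tables, and all 40 passed the filter on low counts that left 17780 genes for testing. By role they are CENPA with its loading factors (4 genes), the DNA-binding protein CENPB, the constitutive centromere-associated network (CCAN, 14 genes), the Ndc80 complex (4), the Mis12 complex (4), the Knl1 complex (2), the Ska complex (3), the outer corona with its dynein adaptors (5), the shugoshins (2) and CENPJ. CENPJ shares the family's naming but encodes a centriole protein, and it is kept in the counts as listed.

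The centromere is marked by nucleosomes that carry the histone variant CENPA in place of H3. The CCAN sits on this chromatin through the cell cycle and recruits the Mis12, Knl1 and Ndc80 complexes, which bind spindle microtubules in mitosis and hold the spindle checkpoint on until chromosomes are attached. Many of these genes are transcribed mainly in G2 and mitosis, so that in a dividing tumour line their RNA is known to follow how many cells are in those phases.

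RNA was measured in MDA-MB-468, a line from a triple-negative breast cancer with many copies of EGFR, labelled wild type in every library. The combination was 5 µM tazemetostat, an inhibitor of the methyltransferase EZH2, with 5 µM ipatasertib, an inhibitor of the kinase AKT, given for 24 h in 2% FBS on 6 cm plates after 5 days in tazemetostat or DMSO. Docetaxel, a taxane that stabilises microtubules, was given at 10 nM for 24 h or for 8 h in 10 cm plates, and DMSO cultures were the control, with hours, serum and plate size not stated. Each of the 4 groups has 3 libraries, named A, B and C, and values below are given in that order. No group received tazemetostat or ipatasertib alone, so the agents, the serum and the pre-treatment cannot be told apart in the combination. The letters are not said to mark separate cultures, so a p-value here covers the spread from library to library only, and that spread may be technical.

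Library totals lay between 29820617 and 45807059 counts. All 6 epithelial markers were present in every group, and EGFR lay between 2522 and 5305 CPM per library. ESR1 was low but present, at 0.745 to 2.13 CPM per library, and PGR reached at most 0.0357 CPM. CPM here are relative to library totals scaled with TMM factors. Summed markers of other cell types were low, at 12.3 to 23.4 CPM for fibroblasts, 26.2 to 56.9 CPM for immune cells and 12.1 to 40.1 CPM for endothelium, against 7990 to 12449 CPM for epithelium. Most of these sums came from COL1A1, CD14 and KDR, and PTPRC stayed at or below 0.227 CPM. Some of these markers moved with the combination. LUM lay between 3.76 and 4.61 CPM under the combination and was at 0 in the other groups. CSF1R lay between 15.2 and 15.6 CPM under the combination and between 2.60 and 2.89 CPM in DMSO, KDR between 35.8 and 37.1 CPM and between 21.04 and 23.3 CPM, and CD14 between 22.7 and 29.7 CPM and between 51.3 and 54.2 CPM in these groups. The part of such cells in the results was not tested. Mitochondrial genes took 8.49 ± 0.7995% of counts under the combination, 6.38 ± 1.28% after docetaxel for 24 h, 8.55 ± 0.409% after 8 h and 4.21 ± 0.244% in DMSO (SD, n = 3 each). The 40 genes together took 0.184 ± 0.0027%, 0.201 ± 0.0053%, 0.2498 ± 0.0008% and 0.199 ± 0.0020% of counts in the same order of groups. In bulk RNA, fewer cells in a phase and less RNA per cell cannot be told apart.

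Most of the list rose after 8 h of docetaxel. Of the 40 genes 31 rose and 0 fell against DMSO, where 22.5% of all genes tested rose and 24.8% fell, and the other 9 did not pass the test. Calls are those of the quasi-likelihood test of edgeR at an adjusted p under 0.05 (Benjamini-Hochberg, over all 17780 genes). The median log2 difference of the 40 was 0.46, against -0.02 over all genes tested. The single values ran between 0.02 for CENPB and 0.98 for SPC25, and the libraries of the groups did not overlap for 30 of the 31, where 96.5% of all genes called higher had no overlap either. The count of 0 lower genes was also 0 at an unadjusted p under 0.05 and by DESeq2. Scaled to plain library totals instead of TMM, the median of all genes tested moved to -0.18, with 2288 genes higher and 6784 lower against 3994 and 4415, while the 40 kept a median of 0.31 with 28 higher and 1 lower. The rises of CENPI, KNTC1 and CENPJ were not called on that scale, and CENPB passed as lower at -0.14. With mitochondrial genes left out of the library totals, a scale chosen after seeing the data, 29 genes were higher.

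At 24 h of docetaxel fewer genes of the list were called against DMSO. There 15 genes rose and 6 fell, where 20.2% of all genes tested rose and 22.7% fell, and 19 did not pass. Falls were no more frequent in the list than over all genes, so the 6 are not read as a response of the list. The median log2 difference was 0.10, against 0.01 over all genes tested, with a range of -0.43 for CENPI to 0.59 for CENPW. None of the 21 called genes had libraries that overlapped with DMSO, and of all genes called in that comparison 96.5% had none. Without library C of the 24 h group the number of lower genes was 3, since CENPN, DSN1 and KNL1 no longer passed. The same 3 DMSO libraries serve all comparisons with DMSO, so these are not independent of each other. With library totals OIP5 and NDC80 were not called and ZW10 passed as lower.

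Set directly against 8 h, 24 h of docetaxel had most of the list lower. There 32 of the 40 genes were lower and 0 higher at 24 h, where 18.3% of all genes tested were lower and 16.6% higher, with a median of -0.33 against 0.01 over all genes. The other 8, OIP5, CENPL, CENPT, CENPW, MIS12, NSL1, SKA2 and CENPJ, did not pass. The largest differences were those of SPC24, SPC25 and ZWINT, at -1.01 ± 0.06, -1.00 ± 0.07 and -0.93 ± 0.05 log2 units (± SE). The count of 0 higher genes was also 0 at an unadjusted p under 0.05 and by DESeq2. With library totals the median of all genes tested moved to 0.14, with 5392 genes higher and 1655 lower against 2947 and 3261, and 21 of the 40 genes were still called lower with a median of -0.20. The 11 that lost the call on that scale were CENPA, MIS18A, CENPC, CENPN, CENPQ, KNL1, SKA3, ZW10, SPDL1, SGO1 and SGO2. The mitochondrial share of counts was lower at 24 h than at 8 h, and with those genes left out of the totals 26 genes were lower.

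The combination lowered more of the list than it raised. Against DMSO 6 genes rose and 22 fell, where 31.4% of all genes tested rose and 31.4% fell, and 12 did not pass, with a median log2 difference of -0.19 against 0.01 over all genes. The 6 that rose were CENPA, HJURP, CENPW, NDC80, NUF2 and CENPF. The deepest falls were those of CENPO, CENPN and CENPL, at -0.67 ± 0.07, -0.63 ± 0.06 and -0.58 ± 0.07 log2 units, and the libraries did not overlap for any of the 28 called genes, against 96.9% without overlap among all genes called there. Set against 24 h of docetaxel, 6 genes were higher and 24 lower under the combination, where 32.1% of all genes tested were higher and 31.7% lower, with a median of -0.23 against 0.00. DESeq2's own test called 6 higher and 22 lower there. That contrast differs in agent, serum, plate and pre-treatment at once, and these cannot be told apart.

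**Figure D1:**
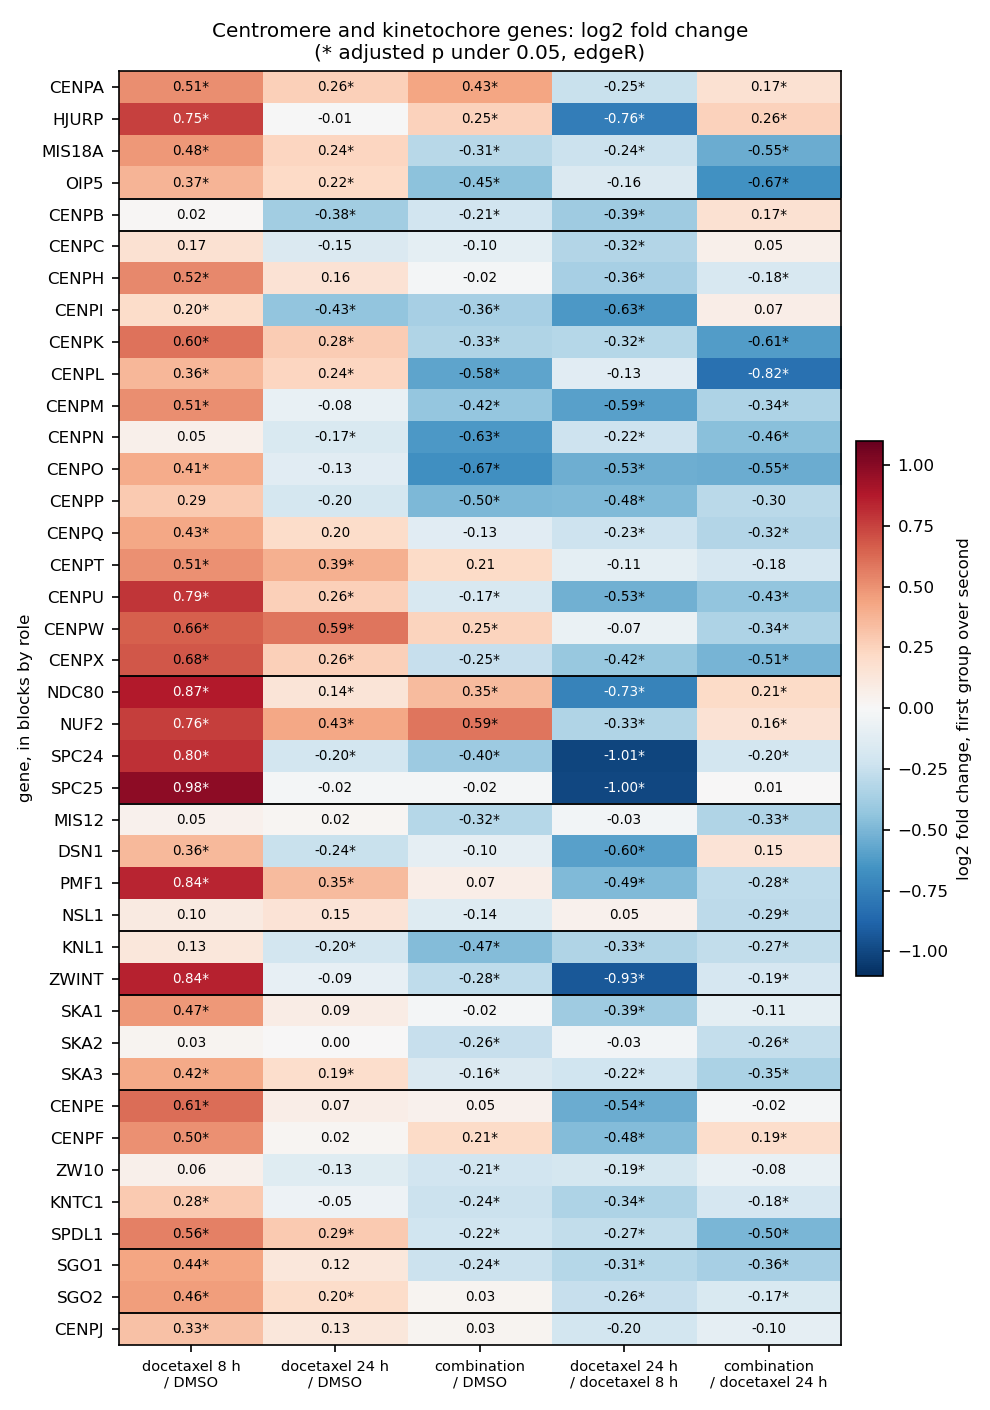
Log2 fold changes of the 40 genes (rows, in blocks by role) in 5 comparisons (columns), with an asterisk where the adjusted p of edgeR was under 0.05. The 8 h column holds 31 called rises and 0 called falls, and the combination column holds 6 rises and 22 falls.

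Read across the comparisons with DMSO, the most frequent order of calls was higher at 8 h, higher at 24 h and lower under the combination, held by the 8 genes MIS18A, OIP5, CENPK, CENPL, CENPU, CENPX, SKA3 and SPDL1, against 3.43% of all genes tested. CENPA, CENPW, NDC80 and NUF2 were higher in all 3 treatments, as were 4.33% of all genes tested. CENPH, CENPQ, SPC25, SKA1, CENPE and CENPJ were called higher at 8 h and were not called in the other treatments (2.87% of all genes). CENPM, CENPO, ZWINT, KNTC1 and SGO1 were higher at 8 h, not called at 24 h and lower under the combination (3.57% of all genes), and CENPB, CENPN and KNL1 were lower at 24 h and under the combination and not called at 8 h (3.55% of all genes). CENPC and NSL1 passed in none of the comparisons with DMSO, where 18.5% of all genes passed in none. By mean CPM, 39 of the 40 genes were highest at 8 h and NSL1 was highest at 24 h, while 24 were lowest under the combination, 6 at 24 h and 10 in DMSO. This order of group means was not counted over all genes tested, so how unusual it is cannot be said.

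The stretches around the RefSeq starts of 7 genes are shown because these genes behave differently under the combination. CENPA, HJURP, CENPW, NDC80 and NUF2 rose there, SPC24 fell, and SPC25 was not called. Each line gives 120 bases before and 30 from the start on, on the gene's own strand, from the RefSeq table of GRCh38.p14. Capitals mark a CHR element (TTTGAA or TTCGAA on either strand), the cell cycle genes homology region, a motif known to be bound by MuvB complexes at G2 and mitosis genes.
CENPA (chr2:26785936-26786085, plus strand): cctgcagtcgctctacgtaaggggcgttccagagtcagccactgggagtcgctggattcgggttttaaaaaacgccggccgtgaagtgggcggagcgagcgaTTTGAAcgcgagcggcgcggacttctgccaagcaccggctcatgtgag
HJURP (chr2:233854506-233854655, minus strand): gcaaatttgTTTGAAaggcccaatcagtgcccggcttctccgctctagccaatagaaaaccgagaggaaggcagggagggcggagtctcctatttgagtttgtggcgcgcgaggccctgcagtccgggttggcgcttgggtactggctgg
CENPW (chr6:126339995-126340144, plus strand): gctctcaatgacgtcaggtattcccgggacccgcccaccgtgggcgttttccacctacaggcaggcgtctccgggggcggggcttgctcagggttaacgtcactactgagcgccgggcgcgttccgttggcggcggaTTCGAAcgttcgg
NDC80 (chr18:2571437-2571586, plus strand): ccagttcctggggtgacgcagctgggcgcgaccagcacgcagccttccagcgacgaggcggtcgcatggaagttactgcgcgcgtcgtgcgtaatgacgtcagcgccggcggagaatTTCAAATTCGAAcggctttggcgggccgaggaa
NUF2 (chr1:163321834-163321983, plus strand): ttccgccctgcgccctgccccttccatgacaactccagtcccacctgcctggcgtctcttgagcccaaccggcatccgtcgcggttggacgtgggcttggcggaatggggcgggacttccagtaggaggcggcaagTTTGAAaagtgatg
SPC25 (chr2:168890401-168890550, minus strand): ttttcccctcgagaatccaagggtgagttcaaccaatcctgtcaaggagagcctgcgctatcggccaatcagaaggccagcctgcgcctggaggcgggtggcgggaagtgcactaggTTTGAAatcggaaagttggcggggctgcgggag
SPC24 (chr19:11155753-11155902, minus strand): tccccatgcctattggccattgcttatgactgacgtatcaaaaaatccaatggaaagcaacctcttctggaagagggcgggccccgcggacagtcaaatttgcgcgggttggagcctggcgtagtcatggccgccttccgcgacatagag
In NDC80 the capitals cover 2 elements that adjoin, and the first, which spans the start, is read on the other strand. The CHR of CENPA begins 18 bases before the start, that of HJURP 111 bases before it, those of NUF2 and CENPW 17 and 18 bases after it, and that of SPC25 3 bases before it. SPC24 holds neither spelling in its window of 250 bases before to 50 after the start, and the window of SPC25 holds a further copy 247 bases before the start. The 7 genes were picked with their calls known and do not stand for the list. Of the 17 genes with a CHR in their window, 6 rose under the combination, 8 fell and 3 did not pass, and none of these 8 is shown. Over all genes tested 31.4% rose and 31.4% fell there. CENPF, the other gene that rose, has its CHR at base 41 after the start, beyond the stretch shown.

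CENPA is the histone that defines the centromere, HJURP is its chaperone, and MIS18A and OIP5 belong to the Mis18 complex that licenses its loading. CENPA had 77.7, 72.2 and 72.6 CPM under the combination, 64.4, 67.1 and 66.1 CPM after docetaxel for 24 h, 82.1, 75.7 and 76.6 CPM after 8 h, and 52.7, 57.6 and 54.6 CPM in DMSO. HJURP had 64.1, 71.5 and 65.6 CPM under the combination, 55.6, 55.2 and 57.6 CPM after docetaxel for 24 h, 93.6, 97.3 and 94.4 CPM after 8 h, and 56.5, 54.7 and 57.9 CPM in DMSO. All 3 treated groups lay above DMSO for CENPA, without overlap, whereas for HJURP the 24 h and DMSO libraries were mixed. CENPA rose by 0.43 ± 0.05 log2 units under the combination (± SE, adjusted p 2.06e-07), by 0.26 ± 0.05 at 24 h (adjusted p 0.00033) and by 0.51 ± 0.05 at 8 h (adjusted p 5.01e-08). HJURP rose by 0.75 ± 0.05 at 8 h (adjusted p 9.63e-11) and by 0.25 ± 0.05 under the combination (adjusted p 0.000206), with a value of -0.01 ± 0.05 at 24 h (adjusted p 0.953).

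The Mis18 genes went the other way under the combination. MIS18A had 28.3, 26.3 and 27.2 CPM under the combination, 37.9, 40.1 and 41.5 CPM after docetaxel for 24 h, 46.3, 46.7 and 47.99 CPM after 8 h, and 33.4, 35.4 and 32.6 CPM in DMSO. OIP5 had 16.6, 15.7 and 12.8 CPM under the combination, 22.2, 25.9 and 23.6 CPM after docetaxel for 24 h, 26.7, 27.2 and 25.99 CPM after 8 h, and 20.7, 21.4 and 19.6 CPM in DMSO. For both, every combination library lay below every DMSO library and every 8 h library lay above. MIS18A fell under the combination (-0.31 ± 0.06 log2 units, adjusted p 6.91e-05), and so did OIP5 (-0.45 ± 0.08, adjusted p 5.26e-05), while at 8 h they rose by 0.48 ± 0.06 and 0.37 ± 0.08 (adjusted p 3.03e-07 and 0.000431). At 24 h both rose less, by 0.24 ± 0.06 and 0.22 ± 0.08, and the rise of OIP5 (adjusted p 0.0294) did not pass without 24 h library B (0.16) or C (0.22), or without DMSO library A (0.23) or C (0.19). Exons of OIP5 share 470 bases with OIP5-AS1 on the opposite strand, 38.0% of its exon length, and OIP5-AS1 averaged 1757, 1492, 1361 and 1756 counts under the combination, at 24 h, at 8 h and in DMSO. Whether the counting used strand is not stated, so part of the OIP5 counts may belong to it.

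**Figure D2:**
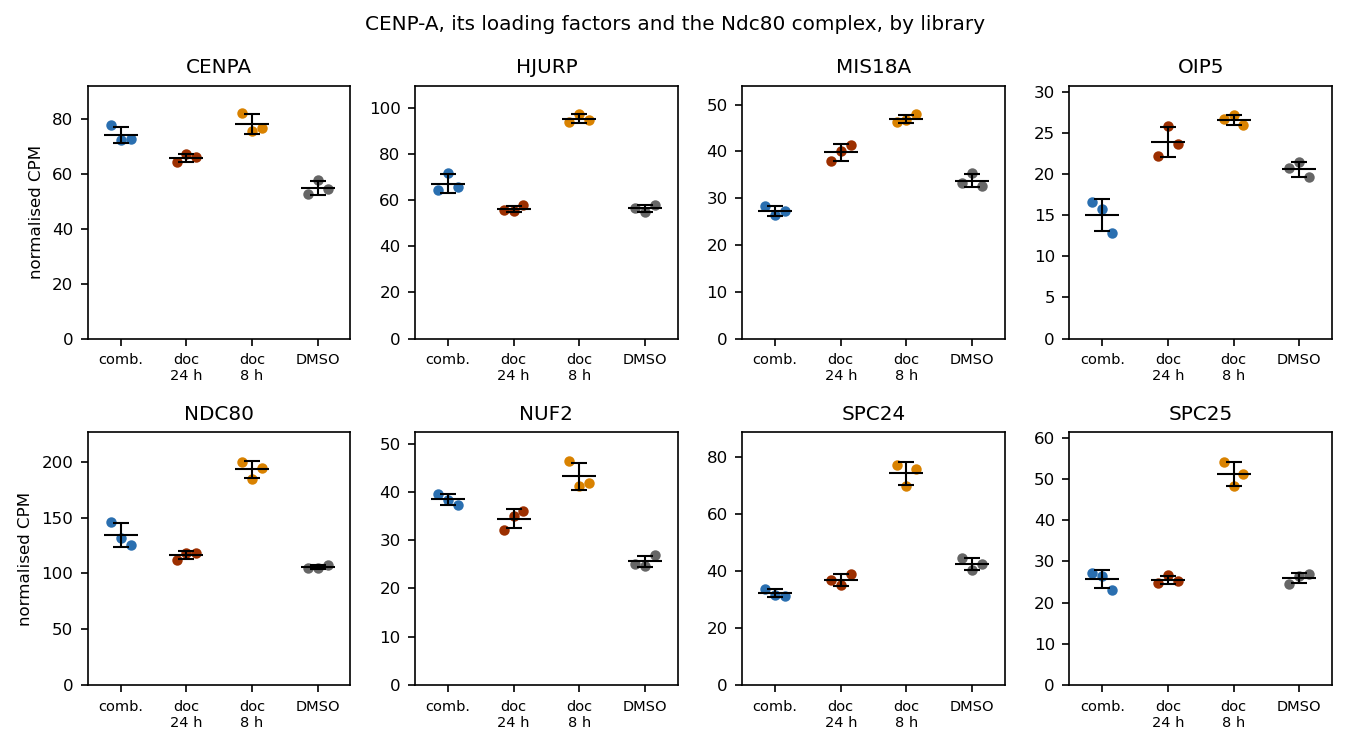
Normalised CPM of the 4 genes of CENP-A and its loading and of the 4 genes of the Ndc80 complex (vertical axis, from 0), with 1 point per library, the mean as a line and the SD as bars, in the order combination, docetaxel 24 h, docetaxel 8 h and DMSO. CENPA and NUF2 lie above DMSO in every treated library, while MIS18A, OIP5 and SPC24 lie below DMSO under the combination.

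CENPB binds a short motif in the alpha-satellite repeats of the centromere. It had 226, 189.9 and 208 CPM under the combination, 186, 182 and 187 CPM after docetaxel for 24 h, 255, 232 and 243 CPM after 8 h, and 236, 250.3 and 235 CPM in DMSO. The combination and 24 h libraries all lay below DMSO, and those of 8 h and DMSO overlapped. CENPB fell at 24 h by 0.38 ± 0.06 log2 units (adjusted p 1.01e-05) and under the combination by 0.21 ± 0.06 (adjusted p 0.00218). It was higher under the combination than at 24 h by 0.17 ± 0.06 (adjusted p 0.0115), a call that did not pass without combination library A (0.10).

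The CCAN had 14 genes here, of which 11 rose at 8 h, 6 rose and 2 fell at 24 h, and 1 rose and 9 fell under the combination. Of all genes tested 22.5% rose at 8 h, 20.2% rose and 22.7% fell at 24 h, and 31.4% rose and 31.4% fell under the combination. CENPC, the scaffold that ties CENPA nucleosomes to the outer kinetochore, had 11.3, 12.02 and 12.7 CPM under the combination, 11.8, 11.4 and 11.5 CPM after docetaxel for 24 h, 14.6, 16.3 and 12.5 CPM after 8 h, and 13.4, 13.2 and 12.1 CPM in DMSO. Its 24 h libraries lay below those of 8 h and DMSO, and the other pairs of groups overlapped. CENPC was not called against DMSO (adjusted p 0.325 under the combination, 0.167 at 24 h and 0.126 at 8 h), and at 24 h it was lower than at 8 h by -0.32 ± 0.09 (adjusted p 0.00649). Without 8 h library B that last difference was -0.23 and did not pass, and without 8 h library C the difference of 8 h and DMSO was 0.26 and did pass.

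Among the CENPH, CENPI, CENPK and CENPM group, CENPI stood apart. It had 18.5, 22.7 and 19.98 CPM under the combination, 21.5, 17.99 and 18.8 CPM after docetaxel for 24 h, 27.8, 30.9 and 31.7 CPM after 8 h, and 25.6, 28.2 and 24.8 CPM in DMSO. CENPK had 14.9, 15.03 and 14.5 CPM under the combination, 20.2, 23.7 and 23.9 CPM after docetaxel for 24 h, 28.1, 28.1 and 28.3 CPM after 8 h, and 19.7, 17.7 and 18.4 CPM in DMSO. In CENPI both the combination and the 24 h libraries lay below DMSO, and the 8 h libraries overlapped with DMSO in 1 end of their range, whereas in CENPK only the combination lay below. CENPI fell under the combination (-0.36 ± 0.08, adjusted p 0.000569) and at 24 h (-0.43 ± 0.08, adjusted p 0.000185), and its rise at 8 h (0.20 ± 0.08, adjusted p 0.0413) did not pass without 8 h library B (0.18) or C (0.17), or without DMSO library A (0.21) or C (0.19). CENPK rose by 0.60 ± 0.07 at 8 h (adjusted p 2.91e-07) and by 0.28 ± 0.07 at 24 h (adjusted p 0.00238), and fell under the combination (-0.33 ± 0.07, adjusted p 0.000395). CENPH rose at 8 h by 0.52 ± 0.08, and was at 0.16 ± 0.08 at 24 h and -0.02 ± 0.08 under the combination, where it did not pass. CENPM rose at 8 h by 0.51 ± 0.06 and fell under the combination (-0.42 ± 0.07), with -0.08 ± 0.06 at 24 h, where it did not pass. Without 24 h library B the difference of CENPH at 24 h was 0.22 and passed. Its lower level under the combination than at 24 h (-0.18 ± 0.08, adjusted p 0.0474) was lost without 24 h library A (-0.19) or C (-0.10) and without combination library B (-0.14) or C (-0.14). That call was also lost with DESeq2's size factors (-0.17), with DESeq2's own test (-0.17) and in a fit of only the groups compared (-0.18).

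CENPL and CENPN, which form the arm that recognises the CENPA nucleosome, were both lowest under the combination. CENPL had 13.96, 15.3 and 14.8 CPM under the combination, 24.4, 27.6 and 25.8 CPM after docetaxel for 24 h, 28.3, 28.5 and 28.2 CPM after 8 h, and 22.3, 21.5 and 22.1 CPM in DMSO. CENPN had 46.4, 45.3 and 42.9 CPM under the combination, 62.5, 65.7 and 56.8 CPM after docetaxel for 24 h, 70.7, 75.2 and 69.8 CPM after 8 h, and 66.7, 70.3 and 71.2 CPM in DMSO. No combination library of either gene reached any library of another group. CENPL fell under the combination by 0.58 ± 0.07 (adjusted p 7.46e-08) and rose at 24 h by 0.24 ± 0.06 and at 8 h by 0.36 ± 0.06 (adjusted p 0.00367 and 4.65e-05), and its level under the combination was 0.567-fold that of 24 h. CENPN fell under the combination (-0.63 ± 0.06, adjusted p 2.5e-09) and was not called at 8 h (0.05 ± 0.06, adjusted p 0.479). Its fall at 24 h (-0.17 ± 0.06, adjusted p 0.0171) did not pass without 24 h library C (-0.12) or DMSO library B (-0.15) or C (-0.14). Exons of CENPN share 12.8% of their length with CMC2 on the opposite strand.

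CENPO, CENPP, CENPQ and CENPU belong to a further CCAN module. CENPO had 12.8, 12.8 and 14.7 CPM under the combination, 21.1, 19.5 and 18.3 CPM after docetaxel for 24 h, 27.8, 29.9 and 27.5 CPM after 8 h, and 21.5, 21.2 and 21.7 CPM in DMSO. CENPU had 50.6, 45.1 and 47.5 CPM under the combination, 60.6, 66.00 and 66.8 CPM after docetaxel for 24 h, 96.8, 86.9 and 95.1 CPM after 8 h, and 56.1, 51.00 and 54.2 CPM in DMSO. CENPP had 2.69, 2.98 and 2.68 CPM under the combination, 2.89, 3.61 and 3.75 CPM after docetaxel for 24 h, 5.24, 5.01 and 4.100 CPM after 8 h, and 4.15, 3.77 and 3.84 CPM in DMSO. The combination lay below DMSO for all 3 of these genes, and 8 h lay above DMSO for CENPO and CENPU, with some overlap for CENPP. CENPO had the deepest fall of the 40 under the combination (-0.67 ± 0.07, adjusted p 4.21e-08), against a rise of 0.41 ± 0.07 at 8 h (adjusted p 4.29e-05). CENPU rose by 0.79 ± 0.06 at 8 h and by 0.26 ± 0.06 at 24 h (adjusted p 4.46e-10 and 0.00102). Its fall under the combination was small (-0.17 ± 0.06, adjusted p 0.0165) and did not pass without combination library B (-0.13) or DMSO library A (-0.14) or C (-0.16). CENPP, the lowest of the 40, fell under the combination (-0.50 ± 0.14, adjusted p 0.00395), with 0.29 ± 0.13 at 8 h (adjusted p 0.0781), which passed without 8 h library C (0.38), and a difference from 24 h of -0.30 ± 0.14 that passed without 24 h library A (-0.41). CENPQ rose at 8 h by 0.43 ± 0.09, and its values at 24 h (0.20 ± 0.09, adjusted p 0.0724) and under the combination (-0.13 ± 0.09, adjusted p 0.238) did not pass. Without 24 h library A (0.25) or DMSO library B (0.26) the first passed, and without combination library A (-0.24) the second did. CENPQ was lower at 24 h than at 8 h (-0.23 ± 0.09, adjusted p 0.0458), a call lost without any 1 of the 8 h libraries A (-0.21), B (-0.25) and C (-0.23) or of the 24 h libraries A (-0.18) and B (-0.24). Opposite-strand exons cover 27.0% of CENPO exons (ADCY3), 38.0% of CENPP exons (IPPK) and 11.7% of CENPU exons (PRIMPOL). As for OIP5, part of the counts of these genes and of CENPN may belong to the opposite-strand genes. ADCY3 averaged 918 counts under the combination, 1144 at 24 h, 1416 at 8 h and 2255 in DMSO, and its part in the low CENPO values under the combination was not tested. IPPK averaged 113 counts under the combination and 229.7 in DMSO, CMC2 1428 and 1906 counts, and PRIMPOL 343 and 256 counts in these groups.

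CENPT, CENPW and CENPX carry histone folds, and CENPT reaches directly to the Ndc80 complex. CENPW had 48.1, 44.4 and 43.98 CPM under the combination, 52.8, 57.4 and 62.3 CPM after docetaxel for 24 h, 66.4, 54.9 and 60.3 CPM after 8 h, and 38.3, 38.1 and 38.6 CPM in DMSO. CENPX had 94.9, 82.7 and 89.98 CPM under the combination, 125, 129 and 128 CPM after docetaxel for 24 h, 189.5, 154 and 167 CPM after 8 h, and 104, 103 and 112 CPM in DMSO. CENPT had 20.3, 21.6 and 20.8 CPM under the combination, 22.7, 23.4 and 24.96 CPM after docetaxel for 24 h, 28.5, 26.2 and 21.9 CPM after 8 h, and 19.9, 15.1 and 18.8 CPM in DMSO. All treated libraries of CENPW lay above DMSO, the combination libraries of CENPX lay below DMSO with the docetaxel libraries above, and the DMSO libraries of CENPT lay below all others. CENPW rose by 0.25 ± 0.07 under the combination (adjusted p 0.00331), by 0.59 ± 0.07 at 24 h (adjusted p 4.73e-07) and by 0.66 ± 0.07 at 8 h (adjusted p 4.65e-08). For CENPX the rises were 0.26 ± 0.06 at 24 h and 0.68 ± 0.06 at 8 h (adjusted p 0.00212 and 1.25e-08), with a fall under the combination (-0.25 ± 0.06, adjusted p 0.00167). CENPT rose by 0.39 ± 0.09 at 24 h and by 0.51 ± 0.09 at 8 h (adjusted p 0.00132 and 9.25e-05). Its value under the combination was 0.21 ± 0.09 (adjusted p 0.0532), and it passed with DESeq2's size factors (0.22), with DESeq2's own test (0.22) and without DMSO library A (0.30).

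The Ndc80 complex is the main coupling of the kinetochore to microtubules, with NDC80 and NUF2 forming the microtubule-binding head and SPC24 and SPC25 the end that docks on the inner kinetochore. At 8 h its 4 genes rose together, by 0.87 ± 0.05, 0.76 ± 0.06, 0.80 ± 0.06 and 0.98 ± 0.07 log2 units for NDC80, NUF2, SPC24 and SPC25 (adjusted p 2.58e-11, 2.08e-09, 2.97e-10 and 8.96e-11). Under the combination and at 24 h the 4 genes no longer moved together. Within the ends, the rise of NUF2 was larger than that of NDC80 in both comparisons, and SPC24 was called lower while SPC25 was not called. Differences between genes of the same end were not tested. NDC80 had 146, 132 and 125 CPM under the combination, 112, 118 and 118 CPM after docetaxel for 24 h, 199.99, 185 and 195 CPM after 8 h, and 104, 105 and 108 CPM in DMSO. NUF2 had 39.7, 38.3 and 37.3 CPM under the combination, 32.2, 35.1 and 35.96 CPM after docetaxel for 24 h, 46.5, 41.3 and 41.9 CPM after 8 h, and 25.2, 24.7 and 26.9 CPM in DMSO. Every treated library of these head genes lay above every DMSO library. NUF2 rose by 0.59 ± 0.06 under the combination, the largest rise of the 40 there (adjusted p 3.02e-08), and by 0.43 ± 0.06 at 24 h (adjusted p 1.02e-05). NDC80 rose by 0.35 ± 0.05 under the combination (adjusted p 6.32e-06), and its rise at 24 h was small (0.14 ± 0.05, adjusted p 0.0421). That small rise did not pass without 24 h library B (0.12) or C (0.13), without DMSO library A (0.14), B (0.14) or C (0.16), or with no filter on low counts (0.12). NUF2 was higher under the combination than at 24 h (0.16 ± 0.06, adjusted p 0.0291), which was lost without 24 h library A (0.11) or combination library A (0.13) or B (0.16) and with no filter on low counts (0.14).

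SPC24 had 33.7, 31.5 and 31.1 CPM under the combination, 36.6, 34.9 and 39.02 CPM after docetaxel for 24 h, 76.96, 69.6 and 75.7 CPM after 8 h, and 44.5, 40.4 and 42.3 CPM in DMSO. SPC25 had 27.2, 26.6 and 23.1 CPM under the combination, 24.7, 26.7 and 25.3 CPM after docetaxel for 24 h, 54.2, 48.3 and 51.2 CPM after 8 h, and 24.6, 26.4 and 27.01 CPM in DMSO. For SPC24 the combination and 24 h libraries all lay below DMSO and the 8 h libraries all above, while SPC25 was set apart from DMSO only at 8 h. SPC24 fell under the combination by 0.40 ± 0.06 (adjusted p 4.6e-06) and at 24 h by 0.20 ± 0.06 (adjusted p 0.0085), the second of which did not pass without 24 h library B (-0.17) or DMSO library A (-0.15). The lower SPC24 level under the combination than at 24 h (-0.20 ± 0.06, adjusted p 0.00664) did not pass without 24 h library C (-0.14). SPC25 was at -0.02 ± 0.07 under the combination and -0.02 ± 0.07 at 24 h (adjusted p 0.839 and 0.823). At 24 h SPC24 and SPC25 stood at 0.498 and 0.499 times their 8 h level (adjusted p 1.08e-11 and 7.06e-11).

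Ratios of 2 genes within a library do not depend on the scaling between libraries, and 7 pairs were chosen after the values were seen, so they carry no test. NDC80 and MIS12 belong to different complexes, and CENPW and CENPN to different parts of the CCAN. In 4 of the 7 pairs the combination libraries lay above all others. The log2 ratio of NUF2 to SPC24 was 0.23, 0.28 and 0.26 under the combination, -0.19, 0.01 and -0.12 at 24 h, -0.73, -0.75 and -0.85 at 8 h, and -0.82, -0.71 and -0.65 in DMSO. The groups thus fell into 3 levels, with 8 h and DMSO overlapping. For NDC80 to SPC25 the ratio was 2.42, 2.31 and 2.44 under the combination, 2.18, 2.15 and 2.22 at 24 h, 1.88, 1.94 and 1.93 at 8 h, and 2.09, 1.99 and 1.99 in DMSO, and no groups overlapped. CENPA to OIP5 stood at 2.23, 2.20 and 2.50 under the combination, 1.53, 1.38 and 1.48 at 24 h, 1.62, 1.48 and 1.56 at 8 h, and 1.35, 1.43 and 1.48 in DMSO. HJURP to MIS18A stood at 1.18, 1.44 and 1.27 under the combination, 0.55, 0.46 and 0.48 at 24 h, 1.01, 1.06 and 0.98 at 8 h, and 0.76, 0.63 and 0.83 in DMSO. The other 3 pairs had another order. NDC80 to MIS12 was highest at 8 h, with 3.42, 3.44 and 3.51 under the combination, 2.91, 2.83 and 2.997 at 24 h, 3.58, 3.65 and 3.62 at 8 h, and 2.72, 2.87 and 2.79 in DMSO. ZWINT to KNL1 was also highest at 8 h, with 1.33, 1.03 and 1.195 under the combination, 0.95, 1.14 and 1.18 at 24 h, 1.97, 1.48 and 1.67 at 8 h, and 1.07, 0.88 and 1.01 in DMSO, where the groups other than 8 h overlapped. CENPW to CENPN had 0.05, -0.03 and 0.04 under the combination, -0.24, -0.19 and 0.13 at 24 h, -0.09, -0.45 and -0.21 at 8 h, and -0.80, -0.88 and -0.88 in DMSO, so that DMSO lay below the treated groups and the combination overlapped with 24 h.

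**Figure D3:**
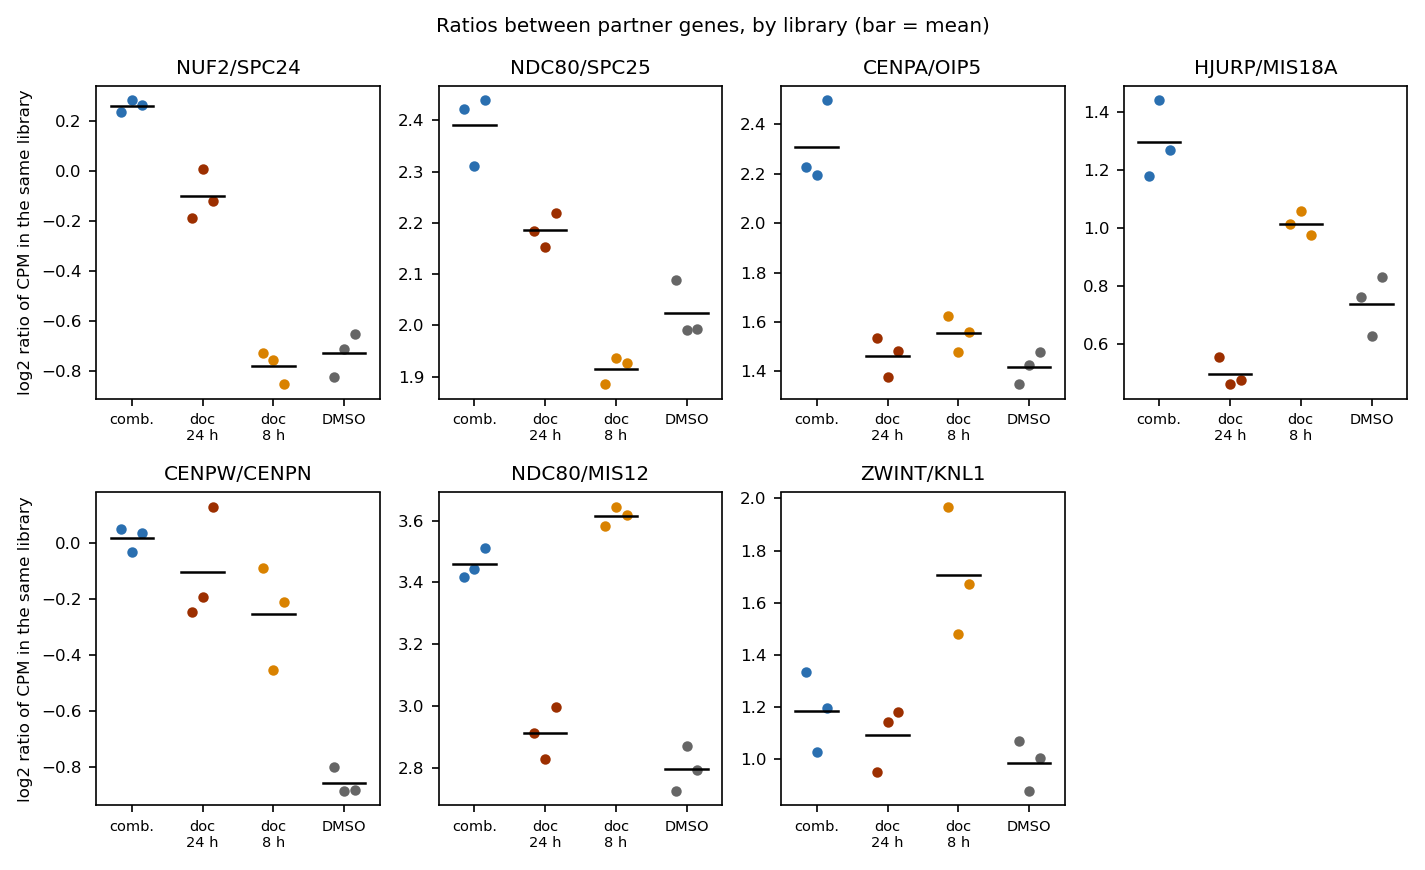
Log2 ratio of the CPM of the genes of each pair in the same library (vertical axis, 1 point per library, bar at the mean) for the combination, docetaxel 24 h, docetaxel 8 h and DMSO. The pairs were chosen after the values were seen, and not all are partners in a complex. The combination libraries lie above all others in the 4 pairs of the upper row, while NDC80 to MIS12 and ZWINT to KNL1 are highest at 8 h and CENPW to CENPN overlaps between the combination and 24 h.

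The Mis12 complex links the CCAN to the Ndc80 and Knl1 complexes, and its 4 genes did not move together. MIS12 had 13.7, 12.1 and 10.99 CPM under the combination, 14.9, 16.7 and 14.8 CPM after docetaxel for 24 h, 16.7, 14.8 and 15.9 CPM after 8 h, and 15.8, 14.4 and 15.5 CPM in DMSO. DSN1 had 33.4, 30.4 and 28.6 CPM under the combination, 29.9, 28.04 and 25.6 CPM after docetaxel for 24 h, 44.3, 40.97 and 41.04 CPM after 8 h, and 36.5, 31.5 and 30.5 CPM in DMSO. PMF1 had 28.5, 25.9 and 27.8 CPM under the combination, 33.9, 31.6 and 34.5 CPM after docetaxel for 24 h, 54.8, 40.2 and 45.3 CPM after 8 h, and 27.02, 26.1 and 25.2 CPM in DMSO. The combination libraries of MIS12 lay below those of the other groups, the 24 h libraries of DSN1 lay below DMSO, and the docetaxel libraries of PMF1 lay above DMSO. MIS12 fell under the combination (-0.32 ± 0.09, adjusted p 0.00278), with 0.02 ± 0.08 and 0.05 ± 0.08 at 24 h and 8 h (adjusted p 0.895 and 0.671). PMF1 rose by 0.35 ± 0.08 at 24 h and by 0.84 ± 0.08 at 8 h (adjusted p 0.00134 and 1.9e-08), and was at 0.07 ± 0.08 under the combination (adjusted p 0.486). DSN1 rose by 0.36 ± 0.07 at 8 h (adjusted p 0.000343). At 24 h DSN1 fell (-0.24 ± 0.07, adjusted p 0.011), a call lost without 24 h library C (-0.18) or DMSO library A (-0.15), and under the combination it was at -0.10 ± 0.08 (adjusted p 0.277). The difference of DSN1 between the combination and 24 h was 0.15 ± 0.08, which passed without 24 h library A (0.20) or combination library C (0.20). NSL1 had log2 differences of -0.14 ± 0.08 under the combination, 0.15 ± 0.08 at 24 h and 0.10 ± 0.08 at 8 h, none of which passed, and it was lower under the combination than at 24 h by -0.29 ± 0.08 (adjusted p 0.00284). Without 24 h library A (0.22) or DMSO library A (0.23) its 24 h value passed.

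KNL1 is the scaffold on which checkpoint proteins load, and ZWINT is its partner. KNL1 had 32.8, 39.3 and 34.1 CPM under the combination, 44.4, 42.6 and 41.5 CPM after docetaxel for 24 h, 46.7, 60.5 and 53.7 CPM after 8 h, and 46.7, 51.00 and 49.7 CPM in DMSO. ZWINT had 82.6, 80.2 and 78.01 CPM under the combination, 85.8, 94.04 and 94.03 CPM after docetaxel for 24 h, 183, 169 and 171 CPM after 8 h, and 97.9, 93.8 and 99.9 CPM in DMSO. Combination libraries of both lay below DMSO, but only ZWINT was set apart from DMSO at 8 h, where the 2 groups did not overlap. KNL1 fell under the combination (-0.47 ± 0.08, adjusted p 1.37e-05) and was at 0.13 ± 0.08 at 8 h (adjusted p 0.175), which passed without 8 h library A (0.22). Its fall at 24 h (-0.20 ± 0.08, adjusted p 0.0393) did not pass without 24 h library B (-0.20) or C (-0.18) or DMSO library B (-0.16) or C (-0.18). ZWINT rose by 0.84 ± 0.05 at 8 h (adjusted p 1.78e-11), fell under the combination (-0.28 ± 0.05, adjusted p 6.55e-05), and was at -0.09 ± 0.05 at 24 h (adjusted p 0.165).

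The Ska complex binds microtubules beside Ndc80. SKA1 had 28.7, 29.6 and 29.7 CPM under the combination, 31.1, 32.8 and 31.1 CPM after docetaxel for 24 h, 43.1, 40.2 and 40.7 CPM after 8 h, and 32.9, 29.5 and 26.9 CPM in DMSO. The 8 h libraries were above all others, and those of DMSO overlapped with the other groups. SKA1 rose at 8 h by 0.47 ± 0.06 (adjusted p 2.64e-06), with -0.02 ± 0.07 under the combination and 0.09 ± 0.07 at 24 h (adjusted p 0.789 and 0.31), the second of which passed without DMSO library A (0.18). SKA2 was called in no docetaxel comparison with DMSO (0.00 ± 0.06 at 24 h and 0.03 ± 0.06 at 8 h) and fell under the combination (-0.26 ± 0.06, adjusted p 0.000542). SKA3 rose by 0.19 ± 0.05 at 24 h and 0.42 ± 0.05 at 8 h. Its fall under the combination was -0.16 ± 0.05 (adjusted p 0.0103) and did not pass without DMSO library C (-0.14).

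Among the corona genes, CENPE is a kinesin that carries chromosomes along microtubules, CENPF is a large farnesylated protein of the corona and nuclear envelope, ZW10 and KNTC1 are subunits of the RZZ complex, and SPDL1 recruits dynein. CENPF had 243, 274 and 233 CPM under the combination, 219, 218 and 219 CPM after docetaxel for 24 h, 279.6, 316 and 318 CPM after 8 h, and 204, 219 and 224 CPM in DMSO. CENPE had 37.2, 43.8 and 37.1 CPM under the combination, 35.5, 44.1 and 40.2 CPM after docetaxel for 24 h, 51.6, 63.2 and 59.8 CPM after 8 h, and 35.98, 38.1 and 40.1 CPM in DMSO. SPDL1 had 45.3, 47.1 and 42.9 CPM under the combination, 56.6, 69.8 and 65.5 CPM after docetaxel for 24 h, 76.5, 78.6 and 76.2 CPM after 8 h, and 53.1, 52.2 and 51.8 CPM in DMSO. All 3 were highest at 8 h, and only SPDL1 had combination libraries below DMSO. CENPF rose by 0.21 ± 0.06 under the combination (adjusted p 0.00372) and by 0.50 ± 0.06 at 8 h (adjusted p 4.52e-07), with 0.02 ± 0.06 at 24 h (adjusted p 0.82). It was higher under the combination than at 24 h (0.19 ± 0.06, adjusted p 0.00761), but not without combination library B (0.12). CENPE rose by 0.61 ± 0.08 at 8 h (adjusted p 1.58e-06), with 0.05 ± 0.08 and 0.07 ± 0.08 under the combination and at 24 h (adjusted p 0.615 and 0.516). SPDL1 rose by 0.29 ± 0.06 at 24 h and 0.56 ± 0.06 at 8 h (adjusted p 0.000603 and 1.26e-07), and fell under the combination (-0.22 ± 0.06, adjusted p 0.00485).

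KNTC1 had 18.9, 18.98 and 18.2 CPM under the combination, 23.1, 19.8 and 20.8 CPM after docetaxel for 24 h, 26.4, 29.2 and 24.8 CPM after 8 h, and 22.04, 21.2 and 22.8 CPM in DMSO. Its combination libraries lay below DMSO and its 8 h libraries above. KNTC1 fell under the combination (-0.24 ± 0.07, adjusted p 0.00734) and rose at 8 h (0.28 ± 0.07, adjusted p 0.00212), with -0.05 ± 0.07 at 24 h (adjusted p 0.576). Its level under the combination was below that of 24 h by a margin that rested on 5 of the 6 libraries (-0.18 ± 0.07, adjusted p 0.0343), since leaving out 24 h library A (-0.12) or C (-0.19) or combination library A (-0.19), B (-0.19) or C (-0.16) ended the call. DESeq2's own test (-0.17) did not call it either. ZW10 fell under the combination (-0.21 ± 0.06, adjusted p 0.00228) and was at -0.13 ± 0.06 at 24 h and 0.06 ± 0.06 at 8 h, where it did not pass. Without 24 h library B (-0.17) its 24 h value passed, and its lower level at 24 h than at 8 h (-0.19 ± 0.06, adjusted p 0.0115) was lost without 8 h library C (-0.16).

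The shugoshins protect the cohesin that holds sister centromeres together. SGO1 had 10.4, 10.1 and 10.8 CPM under the combination, 12.1, 14.3 and 13.8 CPM after docetaxel for 24 h, 17.4, 15.8 and 16.8 CPM after 8 h, and 12.6, 12.1 and 12.2 CPM in DMSO. The 8 h libraries lay above DMSO and the combination libraries below it. SGO1 rose by 0.44 ± 0.08 at 8 h (adjusted p 6.56e-05) and was at 0.12 ± 0.08 at 24 h (adjusted p 0.217). Its fall under the combination (-0.24 ± 0.08, adjusted p 0.0133) did not pass without DMSO library A (-0.22). SGO2 rose by 0.46 ± 0.06 at 8 h and was at 0.03 ± 0.06 under the combination, where it did not pass (adjusted p 0.686). At 24 h SGO2 rose by 0.20 ± 0.06 (adjusted p 0.0111), but not without 24 h library B (0.15), and its lower level under the combination than at 24 h (-0.17 ± 0.06, adjusted p 0.0206) was lost without 24 h library B (-0.12) or C (-0.14) or combination library C (-0.12). The centriole gene CENPJ rose at 8 h (0.33 ± 0.09, adjusted p 0.00633), but not without 8 h library B (0.21), and was at 0.03 ± 0.10 and 0.13 ± 0.09 under the combination and at 24 h. Without 8 h library C its difference between 24 h and 8 h was -0.28 and passed.

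Levels can be compared between genes only per length, and are given here as normalised CPM per kb of exon. In DMSO the order was led by CENPB at 84.8 ± 2.92 CPM per kb (SD, n = 3), CENPX at 69.4 ± 3.31, CENPW at 48.2 ± 0.332 and ZWINT at 40.9 ± 1.30, each above the next beyond their spread. Then came CENPM at 34.6 ± 1.21, NDC80 at 29.4 ± 0.466 and CENPA at 27.7 ± 1.26, of which NDC80 and CENPA did not differ beyond their spread. MIS18A, CENPN, SKA2, CENPF and CENPU followed between 19.6 and 18.2, where neighbours lay within their spread. At the low end stood KNTC1 at 1.94 ± 0.0744, CENPJ at 1.75 ± 0.0615, CENPC at 1.498 ± 0.0793 and CENPP at 0.400 ± 0.0202 CPM per kb. Subunits of one complex did not share a level, as NDC80 stood at 29.4 and its partner NUF2 at 7.62 ± 0.353 CPM per kb. The 40 genes had a median of 11.1 CPM per kb under the combination, 11.9 at 24 h, 15.8 at 8 h and 10.7 in DMSO. Lengths are those of all annotated exons of a gene in GENCODE 29, not of the isoforms made in these cells.

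**Figure D4:**
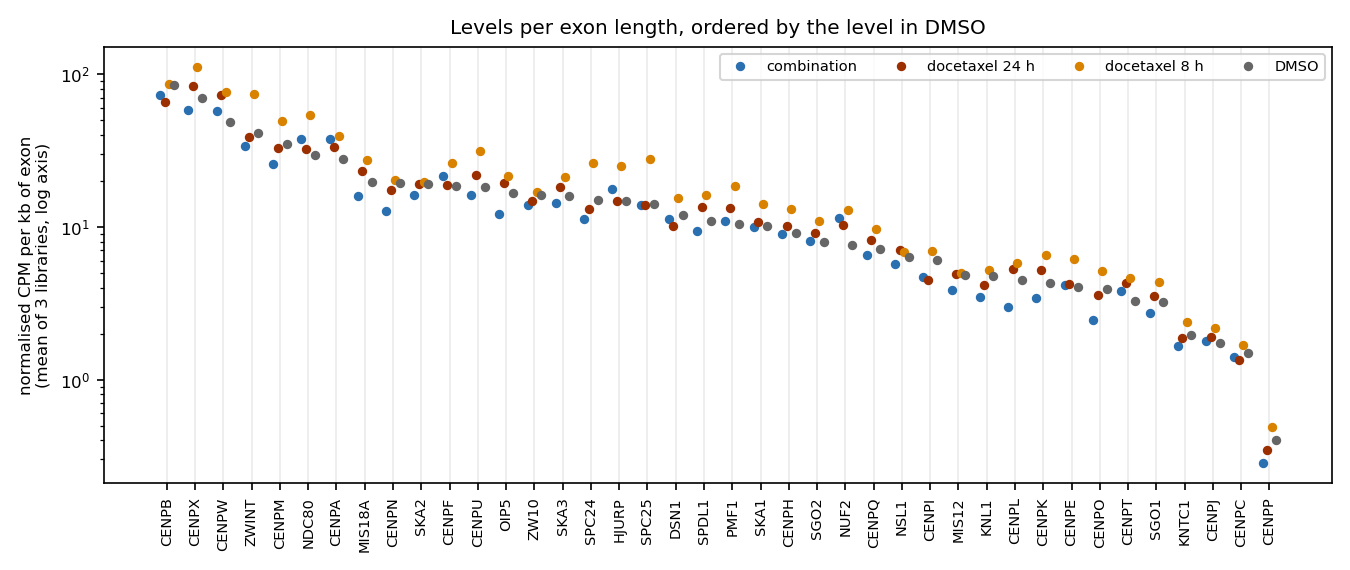
Mean normalised CPM per kb of exon (vertical log axis) of the 40 genes, ordered by their level in DMSO, with 1 point per group (mean of 3 libraries). The levels run between 84.8 for CENPB and 0.400 for CENPP in DMSO. The 8 h point is the highest of the 4 for 39 genes, a count that was not made over all genes tested.

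Windows of 250 bases before to 50 after a RefSeq start were found for 33 of the 40 genes, and MIS18A, CENPH, CENPL, CENPM, KNL1, KNTC1 and CENPJ had none. A CHR element (TTTGAA or TTCGAA, both strands) was in the window of 17 of the 33 genes, or 51.5%, against 19.5% of 27305 genes with windows. The CCAAT box (CCAAT, both strands) was in 22, or 66.7%, against 39.7%, and an E2F motif (spelled TTGGCGC or TTCCCGC or TTCGCGC or TTGCCGC, both strands) in 15, or 45.5%, against 15.3%. The 27305 genes were not limited to the 17780 tested, whereas all 40 genes passed the filter. The shares thus come from unlike sets. Under the combination 6 of the 17 with a CHR rose, 8 fell and 3 did not pass, where 31.4% of all genes tested rose and 31.4% fell. Of the 16 without one 9 fell and 7 did not pass. The 6 are all the genes of the list that rose there. Their part of the 17 is near the share over all genes, and is not read as a link with the motif. The split was made with these results known, and it has no test. At 8 h 14 of the 17 with a CHR and 11 of the 16 without one rose, where 22.5% of all genes tested rose. A match describes letters in a window and not a bound site.

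Other genes of the pathway were counted in the same fits, from lists drawn up by function. For comparison, 22.5% of all genes tested rose and 24.8% fell at 8 h, and 20.2% rose and 22.7% fell at 24 h. Under the combination 31.4% rose and 31.4% fell. Of 12 spindle checkpoint and chromosomal passenger genes 12 rose at 8 h, 6 rose and 1 fell at 24 h, and 3 rose and 5 fell under the combination. TRIP13, a remodeller of checkpoint complexes, fell under the combination (-0.56 ± 0.05) and rose at 8 h (0.75 ± 0.05). AURKB, the kinase of the passenger complex, rose under the combination (0.34 ± 0.06) and at 8 h (0.91 ± 0.06), whereas INCENP, its scaffold, fell under the combination (-0.34 ± 0.06) and at 24 h (-0.63 ± 0.06). These partners were thus unlike under the combination, as NUF2 and SPC24 were.

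Of 12 further kinetochore genes 7 rose and 3 fell at 8 h, 3 rose and 3 fell at 24 h, and 3 rose and 5 fell under the combination. Over all genes tested the shares were 22.5% higher and 24.8% lower at 8 h, and 20.2% and 22.7% at 24 h. Under the combination they were 31.4% and 31.4%. The counts of these 12 at 24 h and under the combination are thus not read as a response of the list. CENPV fell (-1.05 ± 0.08 log2 units) under the combination, and CLASP2, a microtubule plus-end protein, fell there (-0.70 ± 0.08) and at 24 h (-0.49 ± 0.08). KIF2C, the centromeric microtubule depolymerase, rose at 8 h (0.51 ± 0.05). Of 15 cohesin genes 5 rose and 7 fell at 8 h, 2 rose and 8 fell at 24 h, and 1 rose and 13 fell under the combination. PTTG1, which encodes securin, rose at 24 h (0.81 ± 0.07) and at 8 h (0.69 ± 0.07), while the cohesin core gene SMC1A fell under the combination (-0.67 ± 0.06) and at 24 h (-0.62 ± 0.06), and ESCO2, the cohesin acetyltransferase, fell under the combination (-1.08 ± 0.08).

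Genes of cell cycle phases framed these values. Among all genes tested 22.5% rose and 24.8% fell at 8 h, and 20.2% rose and 22.7% fell at 24 h. Under the combination 31.4% rose and 31.4% fell. Of 16 genes of G2 and mitosis 16 rose at 8 h, 8 rose and 4 fell at 24 h, and 8 rose and 3 fell under the combination, with medians of 0.17 under the combination, 0.12 at 24 h and 0.59 at 8 h. HMMR and UBE2C rose under the combination by 0.63 ± 0.05 and 0.63 ± 0.06, while CCNA2, which encodes cyclin A, fell (-0.51 ± 0.05). Of 19 S phase genes 13 rose and 3 fell at 8 h, 1 rose and 17 fell at 24 h, and 18 fell under the combination, with medians of -0.87, -0.38 and 0.19 under the combination, at 24 h and at 8 h. RRM2, the small subunit of ribonucleotide reductase, had 67.4 ± 4.50 CPM under the combination, 135.0 ± 0.707 CPM at 24 h, 322.5 ± 12.6 CPM at 8 h and 176.1 ± 3.14 CPM in DMSO (SD, n = 3 each). The median of the 40 centromere and kinetochore genes under the combination, -0.19, lay between those of these lists. How far the share of cells in each phase moved with these values was not tested.

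**Figure D5:**
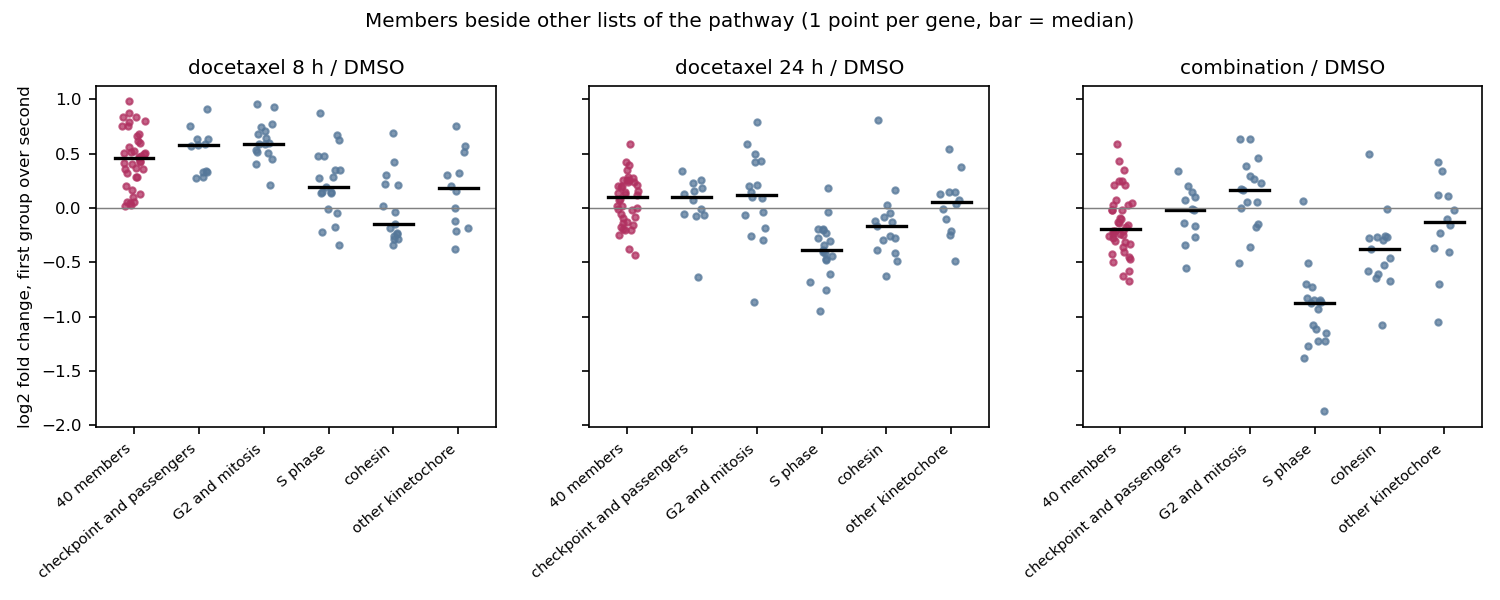
Log2 fold change against DMSO (vertical axis) of each gene of the 40 and of 5 other lists, 1 point per gene with a bar at the list's median, in panels for docetaxel 8 h, docetaxel 24 h and the combination. The 40 have medians of 0.46, 0.10 and -0.19 in these panels, and the S phase genes stand lowest under the combination with a median of -0.87.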

How the data were processed

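Poly(A) RNA of 12 libraries was measured, and the authors deposited raw counts, as whole numbers for each gene symbol, in 1 file per library. Per the submitters' processing notes fastp, HISAT2 2.0.5, DESeq2 and the build hg38 were used, and no source used here names the counting program, its annotation or its strand setting. Another deposited file was not used here. Symbols listed repeatedly (177 symbols, 1745 entries) were kept as separate genes, and none is among the 40. Exon lengths and overlaps came from GENCODE 29 (GRCh38), which holds all 40, and promoter windows from RefSeq (GRCh38.p14).

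Genes were kept by filterByExpr with a minimum count of 10. edgeR 4.0.16 in R 4.3.3 was fitted on all 17780 genes and 12 libraries, with a mean per group and TMM factors between 0.917 and 1.05 (8 residual degrees of freedom). Its quasi-likelihood test was two-sided with Benjamini-Hochberg adjustment over all genes. The SE of a log2 difference was taken as its size divided by the root of F. DESeq2 1.42.0, other scalings, no filter, fits of only the groups compared, a replicate block and left-out libraries were alternatives. Libraries of a group differed by more than sampling noise, and PCR copies were not marked, so a count is not always an independent molecule.

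The 40 genes, the other lists and the tests were chosen with earlier results of these data known. Values per library are printed for up to 6 genes in each direction with the largest called difference in a comparison, and for 16 genes listed by name. Of each other list at most 3 genes per comparison are named, those with the smallest adjusted p.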

Additional observations from a re-analysis of the deposited data

Results flagged for a closer look

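CENPI, SPC24 and DSN1 were called higher than DMSO at 8 h of docetaxel and lower than DMSO at 24 h, with the difference between the times itself past the threshold. From 24 h minus 8 h it was -0.63 for CENPI, -1.01 for SPC24 and -0.60 for DSN1 in log2 units. Left-out libraries ended the call of the rise of CENPI at 8 h and of the falls of SPC24 and DSN1 at 24 h, as given above, and did not end those of the rises of SPC24 and DSN1 at 8 h or of the fall of CENPI at 24 h.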

How the results depend on the processing

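Of 200 values (40 genes in 5 comparisons) 142 were called, and leaving out 1 library at a time ended 22 of these calls. The number of genes lower at 24 h than in DMSO was 6, and lay between 3 and 6 when each library was left out. With library totals instead of TMM 182 of the 200 values stayed on their side of the threshold. On that scale 1 gene was lower at 8 h than in DMSO (CENPB, -0.14, adjusted p 0.0201) and 21 were lower at 24 h than at 8 h. Over all genes it gave 2288 higher and 6784 lower at 8 h, and 5392 higher and 1655 lower at 24 h against 8 h. With mitochondrial genes also left out of the totals, 4648 were higher and 1984 lower at 24 h against 8 h, and the cause was not tested. The replicate block gave 31 genes higher and 0 lower at 8 h, 15 and 6 at 24 h, 7 and 22 under the combination, 0 and 31 for 24 h against 8 h, and 7 and 24 for the combination against 24 h. Deviations of libraries of the same letter had correlations of -0.134 to 0.143 (18 pairs), which cannot show whether the letters mark shared cultures. The block is thus not read as a known pairing. DESeq2's test kept 197 of the 200 values on their side. Genes with few counts, such as CENPP, have the widest errors.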
